A study of Mus musculus with 120 samples.

Results

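Epididymosomes are the membrane vesicles of the fluid of the epididymis, the duct in which mammalian sperm mature after leaving the testis. Small RNA of epididymosomes from the cauda, the distal end of that duct, was set against small RNA of sperm taken from the mouse testis. The members were the 3 libraries of cauda epididymosomes and the 4 libraries of testicular sperm in a table of 20 libraries along sperm maturation, chosen by their column names, with mock-fused and vesicle-fused testicular sperm left out. The whole series held 120 samples. All 7 came from mice on control diet whose tissues were taken at 8 to 12 weeks of age, and RNA under 40 nt was cut from a gel and cloned. Strain, number of animals per library and the way vesicles or sperm were purified are not stated in the labels, so p-values measure only the spread between these libraries, which may be technical. The vesicle titles carry the numbers 1 to 3 and all end in the same 6 digits. The titles of testicular sperm libraries 1 to 4 carry the marks 2X, NaCl, fusion untreated and somatic, which the labels do not explain. Only testicular sperm library 3 has the 6-digit title ending of the vesicles. Libraries 2 and 4 share another, and library 1 has its own, and what the endings stand for is not stated.

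Sperm leave the testis with little or no transcription, and their RNA then changes as they pass along the epididymis. The epithelium of the duct sheds epididymosomes, which can fuse with sperm, and their cargo is rich in fragments of tRNA and in microRNAs. PIWI-interacting RNAs (piRNAs) are made in large amounts by spermatocytes and round spermatids to silence transposons and other targets. A microRNA is cut from a hairpin precursor and finds its targets mainly through its seed, bases 2 to 8 from the 5′ end. The comparison asks which small RNAs the vesicles carry that sperm leaving the testis hold little of, and the reverse.

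The mature sequences below are of the microRNAs that the results turn on, 5′ to 3′, with the seed in capitals. They are RefSeq sequences on GRCm38.p6. The arm shown is the one with more reads in the series' table of mature microRNAs, or the only arm listed there. That table covers other samples of the series and not the libraries compared here. For Mir451a the only mature form in RefSeq is shown. The deposited counts are per precursor and do not state the arm. Of 25 microRNAs looked up, 20 had such an entry. The first set was higher in the vesicles.
mmu-miR-10a-5p: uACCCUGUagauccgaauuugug
mmu-miR-10b-5p: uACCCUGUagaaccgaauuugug
mmu-miR-141-3p: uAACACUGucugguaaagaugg
mmu-miR-200a-3p: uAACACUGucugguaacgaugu
mmu-miR-200b-3p: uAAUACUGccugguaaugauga
mmu-miR-200c-3p: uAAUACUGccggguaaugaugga
mmu-miR-205-5p: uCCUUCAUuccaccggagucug
mmu-miR-30a-5p: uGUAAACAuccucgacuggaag
mmu-miR-26a-5p: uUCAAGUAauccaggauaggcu
mmu-miR-126a-3p: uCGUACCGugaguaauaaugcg
On GRCm38 the mature Mir141 lies at chr6:124717917-124717938 (minus strand), Mir200a at chr4:156054911-156054932 (minus strand), Mir10a at chr11:96317186-96317208 (plus strand) and Mir10b at chr2:74726074-74726096 (plus strand). Mir10a and Mir10b share a seed and differ by U12A, written with the base of Mir10a first. Mir141 and Mir200a share another seed and differ by A17C and G22U, and Mir200b and Mir200c share a related seed and differ by U11G and A22G. The next set was lower in the vesicles.
mmu-miR-34b-5p: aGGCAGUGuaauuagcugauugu
mmu-miR-449a-5p: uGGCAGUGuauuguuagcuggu
mmu-miR-451a: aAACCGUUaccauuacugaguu
mmu-miR-16-5p: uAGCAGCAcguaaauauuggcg
mmu-miR-92a-3p: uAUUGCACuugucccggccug
mmu-miR-25-3p: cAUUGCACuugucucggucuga
mmu-miR-871-3p: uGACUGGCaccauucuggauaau
mmu-miR-470-5p: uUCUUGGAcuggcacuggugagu
Mature Mir34b lies at chr9:51103610-51103632 (minus strand), Mir449a at chr13:113037549-113037570 (plus strand), Mir451a at chr11:78073186-78073207 (plus strand) and Mir871 at chrX:66810438-66810460 (minus strand). Mir34b and Mir449a share the seed of the mir-34 and mir-449 family. Mir92-1 and Mir25 share a seed and differ by U1C, C14U and C18U, with the base of Mir92-1 first and counting from the 5′ end as in the other pairs. The last set was abundant in both groups.
mmu-miR-22-3p: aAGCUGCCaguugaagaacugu
mmu-let-7f-5p: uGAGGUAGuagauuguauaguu

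The vesicle libraries held 15983533, 17892930 and 19234548 counted reads and the testicular sperm libraries 4842247, 12211159, 16173465 and 15454192. Testicular sperm library 1 stood apart. It was the shallowest, and it held fragments of mRNAs of the caput epithelium, the lining of the proximal epididymis, at a summed 208 counts per 1000000 counted reads (CPM), against 2.98 to 8.78 in the other testicular sperm libraries and 67.0 to 75.3 in the vesicles. Gpx5, a secreted glutathione peroxidase of the caput, was at 89.4, 2.54, 2.23 and 0.712 CPM in testicular sperm libraries 1 to 4. mRNA fragments of stroma and muscle summed to 23.5 CPM in library 1 against 1.23 to 2.91 in the others, and those of blood and immune cells to 176 against 2.87 to 34.2. Their part in the results below was not tested, and the values without library 1 are given where they differ. In this fit, reads were scaled by edgeR's trimmed mean of M values and tested by its quasi-likelihood test, at a threshold of 0.05 after Benjamini-Hochberg adjustment over every row tested. A log2 fold change is the vesicles minus testicular sperm, with its standard error (SE). Of 6572 rows tested, 2787 were higher in the vesicles (42.4%) and 2156 were lower (32.8%), with a median log2 fold change of 0.40 over all rows. Without testicular sperm library 1 the counts were 2947 and 2242, and with only the 4 libraries that share the title ending of the vesicles they were 3691 and 2629, where the lone sperm library is taken to vary as the vesicles do. With library totals in place of the scaling factors the median over all rows was 0.05, so each log2 fold change below would be about 0.35 lower. As 75.2% of all rows passed, every count of higher or lower rows below is to be read beside 42.4% higher and 32.8% lower.

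The vesicles were mostly tRNA fragments and microRNAs, and testicular sperm were mostly piRNAs and rRNA. Reads of tRNA made up 68.3, 74.4 and 74.2% of the vesicle libraries and 7.84, 3.07, 3.32 and 1.15% of testicular sperm libraries 1 to 4, with means of 72.3% ± 3.47 and 3.85% ± 2.83 (SD, n = 3 and 4). The groups lay far apart, and the difference gave a two-sided exact permutation p of 0.0286, which is the smallest that 35 regroupings allow, and 0.0857 after adjustment over the 6 classes. Reads of piRNA made up 0.945, 0.933 and 0.916% of the vesicles and 31.2, 69.2, 43.1 and 77.9% of testicular sperm, again without overlap (exact permutation p = 0.0571, adjusted 0.0857). Reads of rRNA were 2.29% ± 0.489 of the vesicles and 25.3% ± 9.78 of testicular sperm (SD, n = 3 and 4, exact permutation p = 0.0571, adjusted 0.0857). No class passed 0.05 after adjustment. As shares of the library without rRNA, the difference was 68.6 points for tRNA and -71.7 for piRNA, each with an exact permutation p of 0.0286 and 0.0357 after adjustment. Reads of microRNA were 26.5, 21.1 and 21.6% of the vesicles and 30.7, 6.45, 14.9 and 4.04% of testicular sperm. Here the groups overlapped, as library 1 of testicular sperm lay above every vesicle library (exact permutation p = 0.257, adjusted 0.309). Gene fragments were at 1.37% ± 0.0184 and 1.44% ± 0.0881 (SD, n = 3 and 4, exact permutation p = 0.343, adjusted 0.343). Shares of a library add up to the whole, so a class can be lower because another is higher, and fewer vesicles or cells and less RNA in each cannot be told apart.

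**Figure D1:**
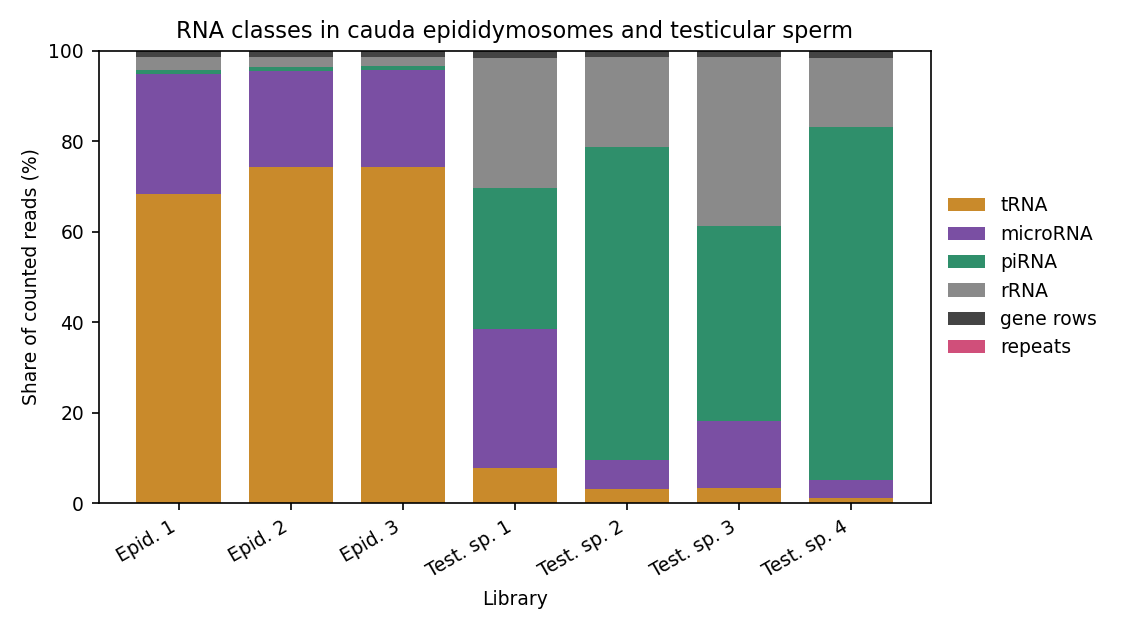
Share of counted reads by RNA class (y axis, %) in each of the 3 cauda epididymosome and 4 testicular sperm libraries (x axis). Reads of tRNA filled 68.3% to 74.4% of the vesicle bars and 1.15% to 7.84% of the testicular sperm bars.

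Among microRNAs, 177 of 367 tested rows were higher in the vesicles and 75 were lower, against 42.4% and 32.8% over all rows. This split depends on what the libraries are scaled by. When the microRNA rows were scaled among themselves, 124 of 365 were higher (34%) and 125 lower (34.2%), and their median log2 fold change moved from 1.12 to -0.04. Without testicular sperm library 1, 194 were higher and 92 lower.

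The microRNAs encoded within the Hox gene clusters held more of the vesicles' microRNA reads than any other group listed. They held 33.6% ± 1.48 of microRNA reads there and 1.76% ± 1.03 in testicular sperm (SD, n = 3 and 4), and 6 of 6 tested rows were higher, with a median log2 fold change of 5.26 beside 0.40 over all rows. Mir10b, which lies in the Hoxd cluster, was at 50938, 38345 and 38761 CPM in the vesicles and 6714, 560.0, 1599 and 221.9 in testicular sperm. Every vesicle library was above every sperm library, and library 1 was the highest of the sperm libraries (log2 fold change 4.68 ± 0.90 SE, adjusted p = 5.11e-04). Mir10a of the Hoxb cluster, with the same seed, was at 42289, 31204 and 30928 CPM against 3170.0, 412, 606 and 107, in the same order of groups (log2 fold change 5.48 ± 0.90 SE, adjusted p = 1.62e-04). Mir196b, a less abundant Hox microRNA, was at 126, 84.6 and 99.3 CPM against 6.20, 0.409, 2.10 and 0.453 (log2 fold change 6.02 ± 0.82 SE). The mir-10 pair filled most of this group, and no other Hox row passed the level of Mir196b.

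The mir-200 family marks epithelium and holds down the transcription factors Zeb1 and Zeb2. All 5 of its rows were tested and all 5 were higher in the vesicles, with a median log2 fold change of 5.82. The family held 9.78% ± 0.689 of microRNA reads in the vesicles and 0.127% ± 0.0675 in testicular sperm (SD, n = 3 and 4). Mir141 led it, at 21775, 14878 and 15951 CPM in the vesicles and 289.7, 34.9, 70.4 and 9.58 in testicular sperm. The highest sperm library, library 1, was still far below the lowest vesicle library (log2 fold change 7.89 ± 1.00 SE, adjusted p = 2.88e-05; 9.09 without library 1 and 8.07 with the shared title ending only). Mir200a, which shares its seed, was at 1857, 1364 and 1481 CPM against 74.6, 10.2, 15.1 and 3.69 (log2 fold change 6.39 ± 0.86 SE). Mir429, cut from the same transcript as Mir200a, was at 3106, 2245 and 2301 CPM against 178, 31.7, 33.8 and 5.31 (log2 fold change 5.82 ± 0.90 SE). Mir200b and Mir200c, named here after their values were seen to complete the family, had log2 fold changes of 5.14 ± 0.88 and 5.51 ± 0.78 (SE). Mir141 lies beside Mir200c on chromosome 6, yet in the vesicles it was at 21775, 14878 and 15951 CPM and Mir200c at 270.2, 200.1 and 237 CPM. Mir205, another epithelial microRNA, was at 577, 448.9 and 478 CPM in the vesicles and 21.3, 2.62, 2.23 and 1.23 in testicular sperm (log2 fold change 6.73 ± 0.89 SE, adjusted p = 3.98e-05). It was listed with other epithelial microRNAs, of which 4 of 6 rows were higher and 0 lower, beside 42.4% and 32.8% over all rows. Mir204 was at 68.5, 57.4 and 74.3 CPM against 289, 83.3, 95.3 and 24.1, where the groups overlapped (adjusted p = 0.515). Mir146b, at 121, 145.6 and 178 CPM against 125, 59.9, 91.9 and 22.8, overlapped too, and its call (adjusted p = 0.0301) was lost without vesicle library 2 or 3 or testicular sperm library 2 or 4, at an adjusted p of 0.0538 to 0.0883.

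Mir143, which is best known from smooth muscle and which controls the state of its contractile cells, had the highest mean of all microRNAs in the vesicles, although in vesicle library 1 Mir10b was higher. It was at 47877, 44163 and 43481 CPM there and at 1211, 169, 361 and 274 in testicular sperm. The vesicle libraries differed little among themselves, and all lay above the sperm libraries (log2 fold change 6.93 ± 0.69 SE, adjusted p = 5.61e-06; 7.07 with the shared title ending only). Mir145a, from the same precursor transcript, was at 204, 182.1 and 194 CPM against 12.0, 1.06, 3.03 and 2.98 (log2 fold change 5.84 ± 0.68 SE). The muscle list had 4 tested rows of 8, all higher. The endothelial microRNAs Mir126a and Mir126b were likewise higher, Mir126a at 395, 345 and 396 CPM against 17.97, 8.60, 17.00 and 6.41 (log2 fold change 5.28 ± 0.51 SE). Fragments of stromal and smooth muscle mRNAs moved with these microRNAs, as 12 listed mRNAs summed to 139.5 to 175 CPM in the vesicles and 1.23 to 23.5 in testicular sperm. The tested rows of this and other lists that are scarce in the sperm passed the filter on low counts through the vesicles, which largely set their direction, so such counts are descriptions. Their part in the microRNA result was not tested.

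Several other microRNAs, many of them widely expressed, were also higher in the vesicles. Mir30a was at 7447, 5846 and 5793 CPM in the vesicles and 698, 980.3, 1612 and 494 in testicular sperm (log2 fold change 3.05 ± 0.51 SE), and it shares its seed with Mir30d, at 2010.4, 1649 and 1762 against 481, 586, 814 and 309 CPM (log2 fold change 2.04 ± 0.45 SE). The rest of the mir-30 family did not pass, with 2 of 6 rows higher and 0 lower, beside 42.4% and 32.8% over all rows. When microRNA rows were scaled among themselves, 2 were lower. The log2 fold change of Mir30e was -0.28 in that setting and -0.58 with the shared title ending only. Mir26a-1 was at 5188, 4398 and 4618 CPM against 731, 390.0, 733 and 193 (log2 fold change 3.56 ± 0.52 SE), and its copy Mir26a-2, which may share its reads, had nearly equal values. Mir148a, abundant in secretory epithelia, was at 5599, 3995 and 4279.7 CPM against 935, 771, 1174 and 297 (log2 fold change 2.87 ± 0.50 SE). Of the group of mir-26, mir-101, mir-148 and mir-152 8 of 9 tested rows were higher, of the mir-29 family 4 of 4, of the mir-23/24/27 clusters 6 of 6 and of the mir-99/100 and mir-125 group 6 of 6. None of the rows of these groups was lower. The cluster of mir-183, mir-96 and mir-182, transcribed in ciliated and sensory cells, had 3 of 3 rows higher, led by Mir182 at 1829, 1351 and 1361 CPM against 491, 363, 356 and 132 (log2 fold change 2.54 ± 0.47 SE). The microRNAs of the imprinted Dlk1-Dio3 region were scarce in both groups, at a summed 648 to 693 CPM in the vesicles and 32.0 to 69.2 in testicular sperm. Of 47 rows 29 were tested, and 29 were higher (20 when microRNA rows were scaled among themselves), beside 42.4% over all rows. They passed the filter on low counts largely through the vesicles, which largely set their direction, so the count is a description. Mir411 was the most abundant of them, at 287, 294 and 278 CPM against 11.4, 2.87, 6.99 and 1.68 (log2 fold change 6.05 ± 0.65 SE).

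Other abundant microRNAs were present in both groups. Mir22 was at 8871, 7678 and 8914 CPM in the vesicles and 7971, 4051, 7061 and 1973 in testicular sperm. The groups overlapped, and the difference did not pass (log2 fold change 1.05 ± 0.49 SE, adjusted p = 0.0678), though without testicular sperm library 1 it did (1.21, adjusted p = 0.00769). Mirlet7f-2, of the let-7 family that holds back stem cell programmes, was at 4611, 3441 and 3444 CPM against 8016, 1071, 3688 and 435, with sperm libraries on both sides of the vesicles (log2 fold change 0.62 ± 0.72 SE, adjusted p = 0.447, and -0.039 when microRNA rows were scaled among themselves). The let-7 family had 3 of 12 rows higher and 0 lower, beside 42.4% and 32.8% over all rows, and 7 higher without testicular sperm library 1. With the shared title ending only, its members went both ways, with a log2 fold change of -1.05 for Mirlet7i and 0.38 for Mirlet7f-1. As a share of microRNA reads it was 5.99% ± 0.192 in the vesicles and 6.45% ± 1.75 in testicular sperm (SD, n = 3 and 4).

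**Figure D2:**
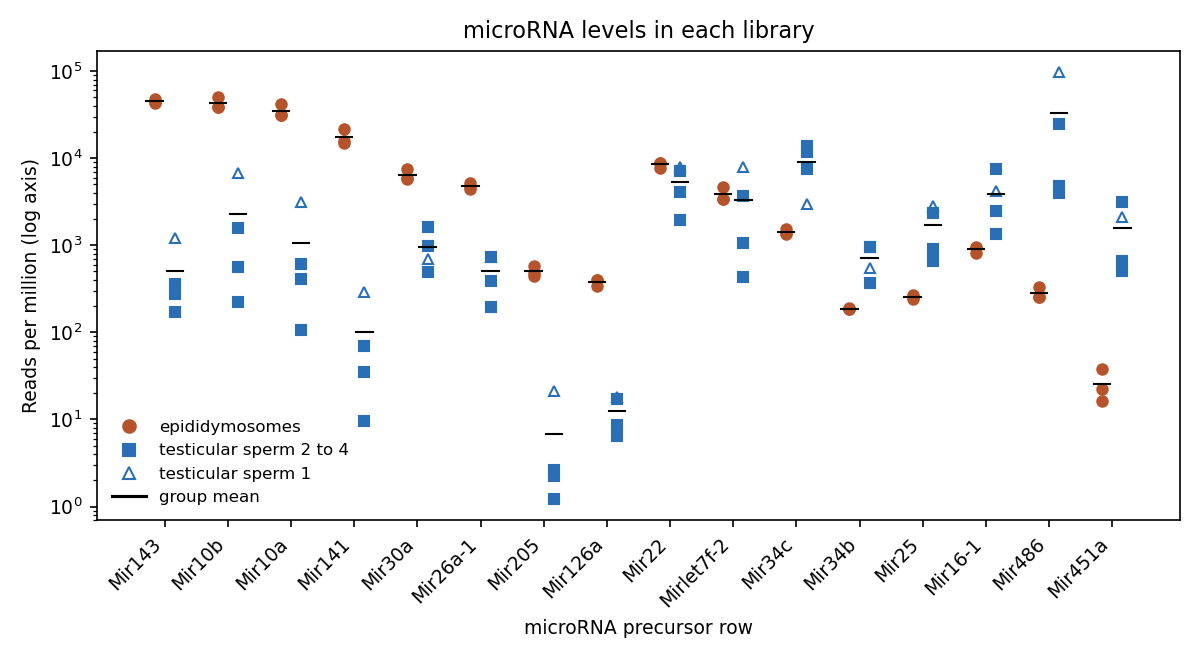
Level of 16 microRNA precursor rows (x axis) in CPM (y axis, log scale), with each of the 3 epididymosome libraries as a circle, testicular sperm library 1 as an open triangle, the other 3 as squares and group means as bars. From Mir143 to Mir126a every vesicle library lies above every sperm library, and from Mir34c to Mir451a every vesicle library lies below.

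The microRNAs lower in the vesicles included those of meiotic and later male germ cells. Mir34c, the leading member of the mir-34 and mir-449 family, which is needed for sperm formation and for cilia, was at 1380.1, 1337 and 1535 CPM in the vesicles and 2942, 13822, 11885 and 7581 in testicular sperm. The lowest sperm library was library 1, and the groups did not overlap (log2 fold change -2.37 ± 0.57 SE, adjusted p = 0.00247; -2.71 without library 1 and -2.96 with the shared title ending only). Mir449a was at 51.6, 50.7 and 56.9 CPM against 114, 539, 352 and 478 (log2 fold change -2.46 ± 0.55 SE). Mir34b, from the same transcript as Mir34c, was at 185, 185 and 191 CPM against 552, 961, 958 and 370.4 (log2 fold change -1.60 ± 0.48 SE, adjusted p = 0.00854, and 0.0503 without vesicle library 2). Of the family, 4 of 5 tested rows of 6 were lower and 0 higher. With edgeR's relative log expression as scaling, or without testicular sperm library 1 or 3, 1 was higher. The family held 0.732% ± 0.109 of microRNA reads in the vesicles and 13.7% ± 10.6 in testicular sperm (SD, n = 3 and 4).

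The testis cluster of microRNAs on the X chromosome had 12 of 20 tested rows lower and 0 higher, with a median log2 fold change of -1.30. Mir871 was at 168, 165 and 163 CPM in the vesicles and 789, 1088, 1253 and 685 in testicular sperm (log2 fold change -2.20 ± 0.44 SE, adjusted p = 6.27e-04), and Mir470 was at 113, 97.0 and 106 against 1228, 620.3, 586 and 287 CPM (log2 fold change -2.30 ± 0.49 SE). Both were lower in every vesicle library than in any sperm library. Mir881, the third of the leading members, was at 335, 296 and 335 CPM against 304, 921, 992 and 274, where sperm libraries 1 and 4 fell within or below the range of the vesicles (log2 fold change -0.66 ± 0.55 SE, adjusted p = 0.291, and 0.0365 without library 1). The count of this cluster was unstable, at 5 without any of the vesicle libraries 1, 2 or 3, 19 without testicular sperm library 1, 8 without library 3 and 18 without library 4, and 20 when microRNA rows were scaled among themselves.

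The mir-17-92 and mir-106b-25 clusters, which promote cell division, had 9 of 12 tested rows lower. Mir25 was at 251, 243 and 267 CPM in the vesicles and 2846, 913, 2364 and 653 in testicular sperm (log2 fold change -2.37 ± 0.56 SE, adjusted p = 0.00206). Mir92-1, with its seed, was at 377, 341 and 329 CPM against 5187, 661, 1763 and 674, and the spread of the sperm libraries was wide (log2 fold change -2.14 ± 0.66 SE, adjusted p = 0.0109, and 0.0510 without vesicle library 2). Without vesicle library 1, 2 or 3 the count of lower rows fell to 3, 2 and 3, and without testicular sperm library 3 to 5. Mir16-1, which slows the cell cycle in many tissues, was at 929, 821 and 943 CPM against 4202, 2464, 7585 and 1357 (log2 fold change -1.82 ± 0.59 SE, adjusted p = 0.0141). It passed only with all 3 vesicle libraries, as leaving out library 1, 2 or 3 gave an adjusted p of 0.0561, 0.0701 or 0.0545.

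Red blood cell microRNAs were among the largest microRNA falls. Mir486 was at 334, 254 and 253 CPM in the vesicles and 97466, 3992, 24702 and 4819 in testicular sperm, so library 1 set its mean, and in libraries 2 and 4 it was below Mir34c (Mir486 log2 fold change -6.41 ± 1.13 SE, adjusted p = 2.60e-04, and -5.09 without library 1). Mir3107 had nearly the same values in each library, so the rows may share reads and count as the same measurement. Mir451a, which is needed for red cell maturation, was at 37.5, 16.3 and 22.6 CPM against 2105, 512, 3103 and 666 (log2 fold change -5.66 ± 0.80 SE), and the order of the sperm libraries was not that of Mir486. The blood list had 3 of 7 rows lower and 2 higher (32.8% and 42.4% over all rows), or 5 lower without testicular sperm library 4. It summed to 673 to 859.6 CPM in the vesicles and to 103174, 5229, 31191 and 5973 in testicular sperm. The higher pair was Mir223 of neutrophils and macrophages, at 40.2, 31.7 and 30.6 CPM against 5.37, 5.73, 9.58 and 1.16, and Mir155 of activated immune cells, at 2.69, 2.57 and 3.17 against 1.24, 1.06, 1.42 and 0.647; both are named after their values were seen. Fragments of the globin mRNA Hbb-bs moved with the red cell microRNAs, at 1.31, 0.224 and 0.468 CPM against 56.0, 1.39, 7.30 and 12.7 (log2 fold change -4.36 ± 1.06 SE), and so did those of Hba-a2, at 4.00, 3.41 and 3.80 against 96.03, 1.39, 10.9 and 15.9, where sperm library 2 was below the vesicles. That call was lost when any vesicle library or testicular sperm library 1 was left out (Hba-a2 log2 fold change -1.09 without library 1, adjusted p = 0.212). The part of blood in these values was not tested.

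**Figure D3:**
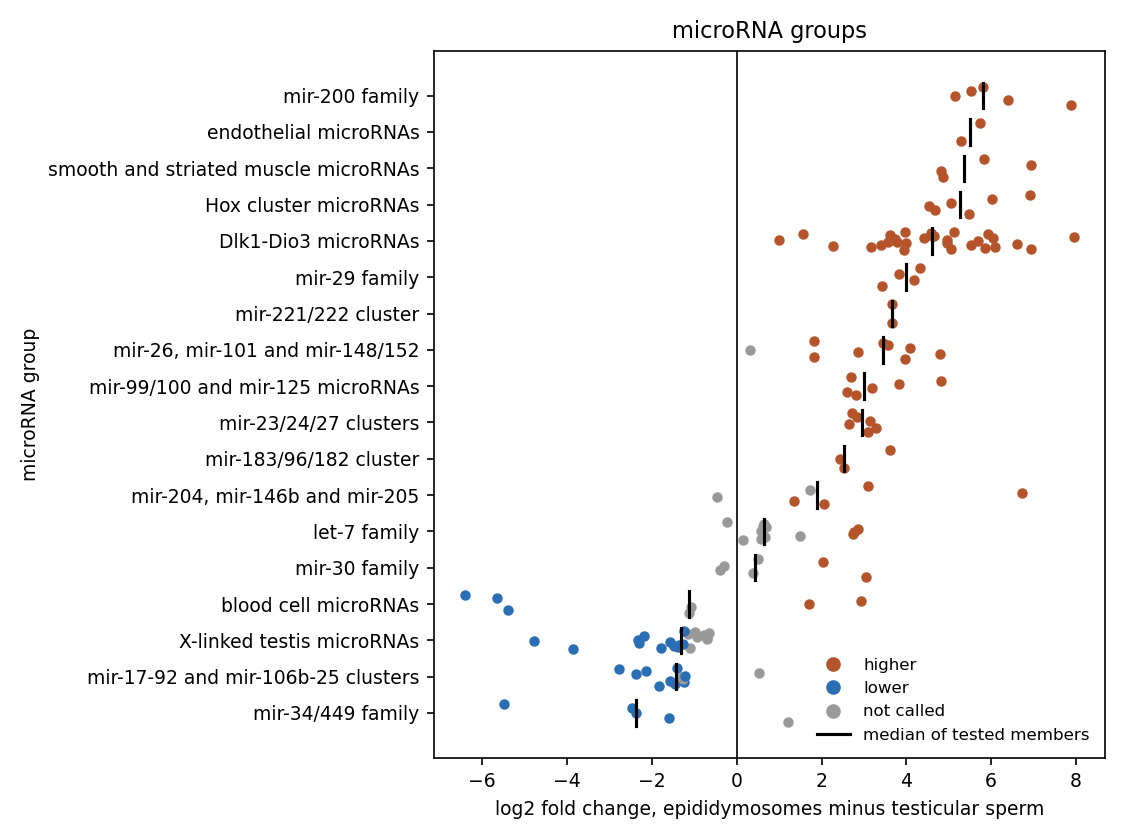
Log2 fold change of vesicles minus testicular sperm (x axis) for each tested member of 18 microRNA groups (y axis), in orange where higher, blue where lower and grey where the test was not passed, with a bar at the median of tested members. The mir-200 family and the Hox cluster microRNAs sit at medians of 5.82 and 5.26, and the mir-34 and mir-449 family at -2.37.

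Fragments of tRNA were the main cargo of the vesicles. They were counted per isoacceptor, all tRNA gene copies with the same anticodon, and named by amino acid and anticodon. Of 52 isoacceptors tested, 43 were higher in the vesicles and 3 were lower, with a median log2 fold change of 3.02 beside 0.40 over all rows. Gly-GCC, the source of the best known sperm tRNA fragments, was at 298309, 316434 and 329484 CPM in the vesicles, and at 14567, 4818, 6379 and 2247 in testicular sperm. All vesicle libraries lay above the sperm libraries, and the highest sperm library was library 1 (log2 fold change 5.90 ± 0.63 SE, adjusted p = 9.11e-06; 6.39 without library 1 and 5.73 with the shared title ending only). Glu-CTC was at 121269.8, 141018 and 134607 CPM against 8487, 2254, 3511 and 1092 (log2 fold change 5.52 ± 0.65 SE). Val-CAC was at 94569, 111538 and 111335 CPM against 21949, 7101, 7797 and 2089.9 (log2 fold change 3.86 ± 0.64 SE). Gly-GCC was the most abundant isoacceptor in every vesicle library. In testicular sperm Val-CAC was above Gly-GCC in libraries 1 to 3 and below it in library 4. The 9 isoacceptors abundant in cauda sperm were all higher and held 96.1% ± 0.322 of tRNA reads in the vesicles and 74.4% ± 5.64 in testicular sperm (SD, n = 3 and 4).

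The largest tRNA rise was not among the most abundant isoacceptors. Thr-AGT was at 947, 834 and 939.6 CPM in the vesicles and 17.8, 8.03, 9.09 and 7.64 in testicular sperm (log2 fold change 6.82 ± 0.48 SE, adjusted p = 3.71e-06), and Asn-GTT was at 2886, 3214 and 2762 against 82.8, 42.6, 57.3 and 26.1 CPM (log2 fold change 6.20 ± 0.51 SE). Gly-CCC was at 30444, 32237 and 33658 CPM against 1470.2, 513, 576 and 220.4, and its fragments may share reads with those of Gly-GCC. His-GTG was at 46625, 41714 and 36409.8 CPM against 3789.8, 698, 838 and 279.7 (log2 fold change 5.34 ± 0.76 SE). Against these, Ala-TGC was at 123, 124 and 96.8 CPM in the vesicles and 3034, 2068, 1293 and 453 in testicular sperm, lower in each vesicle library than in any sperm library (log2 fold change -3.51 ± 0.61 SE, adjusted p = 2.30e-04). Leu-AAG, at 124, 141 and 108 against 2508, 1646, 1667 and 342 CPM, and Leu-TAG, at 80.5, 80.7 and 69.8 against 899, 583, 587 and 121 CPM, were the other lower isoacceptors, with log2 fold changes of -3.26 ± 0.62 and -2.46 ± 0.59 (SE). They are named after their values were seen, as are the serine isoacceptors. Of the latter only Ser-GCT passed (log2 fold change 1.22 ± 0.51 SE), while Ser-AGA was at 97.4, 167 and 121 CPM against 1157, 271, 231 and 108 (log2 fold change -1.32 ± 0.66 SE, adjusted p = 0.0838). Without testicular sperm library 4, 5 isoacceptors were lower.

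**Figure D4:**
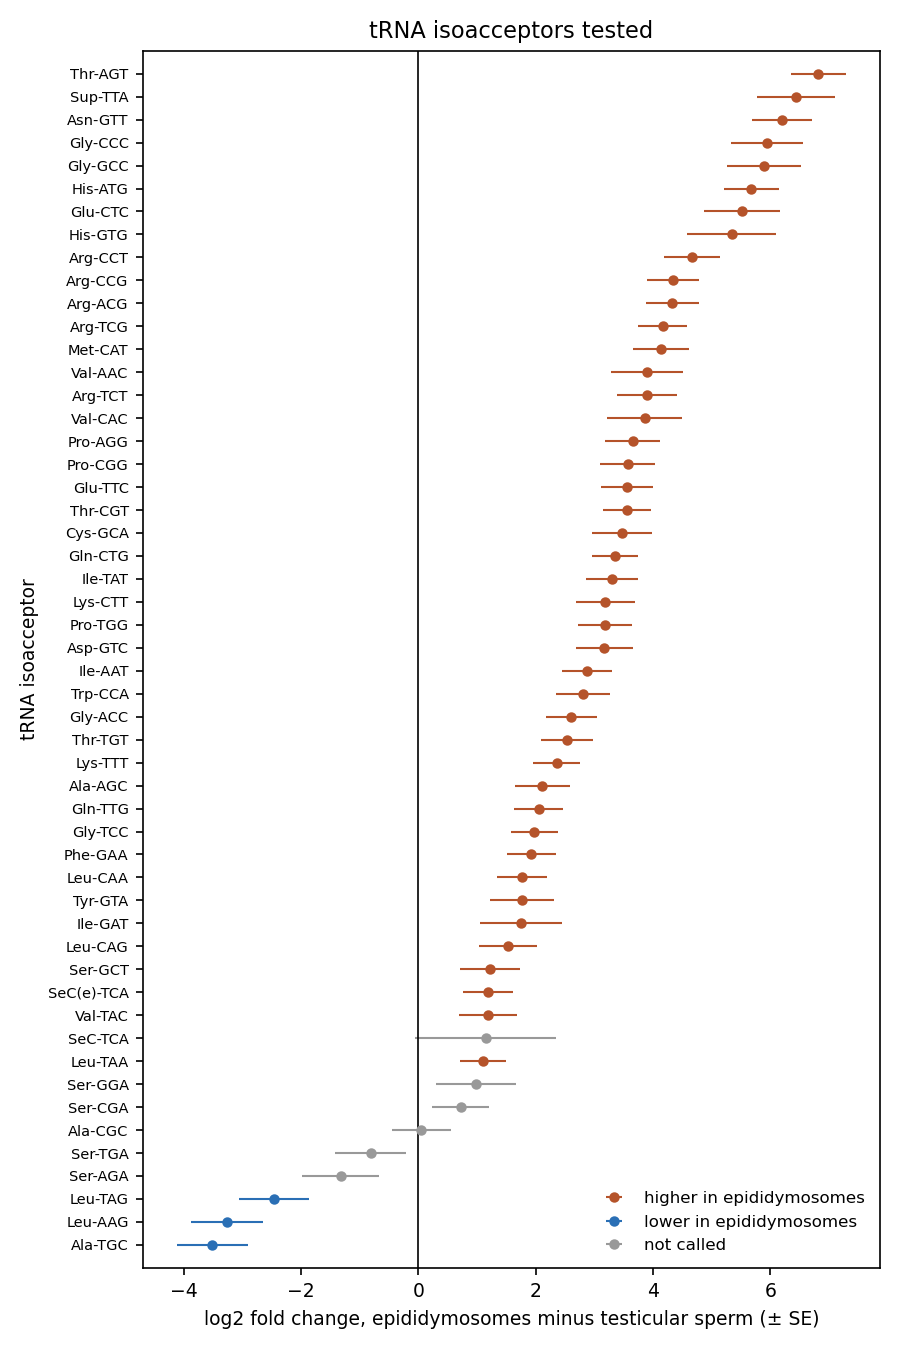
Log2 fold change of vesicles minus testicular sperm with its standard error (x axis) for the 52 tested tRNA isoacceptors (y axis), in orange where higher, blue where lower and grey where the test was not passed. Thr-AGT sits highest at 6.82 and Ala-TGC lowest at -3.51.

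The piRNA rows went the other way, with 329 of 460 tested lower in the vesicles and 4 higher. They are named by chromosome band and number, as the deposited table gives them, or by the gene they lie in. The locus 9-qC-31469.1 was at 169, 184 and 176 CPM in the vesicles and 12404, 29431, 17851 and 33163 in testicular sperm (log2 fold change -6.67 ± 0.59 SE, adjusted p = 3.71e-06). Among piRNA rows of at least 100 CPM the largest fall was of a locus in band D3 of chromosome 4, at 3.75, 3.41 and 4.63 CPM against 448.8, 1046, 644 and 1183, lower in every vesicle library and lowest among the sperm in library 1 (log2 fold change -7.35 ± 0.60 SE). The gene rows with the largest falls included Gm3893, a transcribed pseudogene at chromosome 4, 42089373 to 42092930 (GRCm38), at 1.44, 1.40 and 1.46 CPM against 388, 850.3, 571 and 945 (log2 fold change -8.54 ± 0.61 SE), and the long non-coding RNA 4921525O09Rik at chromosome 13, 52096741 to 52124160, at 0.751, 0.838 and 0.780 against 78.5, 192, 116 and 219 CPM (log2 fold change -7.20 ± 0.61 SE). Their levels across the 4 sperm libraries ran in the order of that piRNA locus. The microRNA row Mir7234 did too, at 1.56, 1.51 and 1.92 CPM against 122, 216, 158 and 259 (log2 fold change -6.45 ± 0.54 SE). The share of piRNA reads had this order as well, and so had Tdrd1 and Rps15, which are given below. The order is thus not particular to the rows named here. The 4 piRNA rows that were higher, named after their values were seen, were pi-Fth1.1, pi-Rplp1.1, pi-Ctdsp2.1 and 1-qE2.3-2.1, and pi-Rplp1.1, in the gene of a ribosomal protein, was at 36.9, 35.7 and 31.6 CPM against 6.82, 4.01, 4.45 and 3.04 (log2 fold change 3.31 ± 0.42 SE). Without testicular sperm library 1, 29 piRNA rows were higher and 346 lower, and with the shared title ending only 35 were higher.

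All rRNA rows but 18S were lower in the vesicles. The 45S row, which also holds the reads of 28S, 18S and 5.8S, was at 17169.7, 12113 and 11729 CPM in the vesicles and 214913, 146204, 288346 and 116745 in testicular sperm (log2 fold change -3.48 ± 0.53 SE, adjusted p = 9.59e-05). Fragments of 5.8S, a small rRNA of the large ribosomal subunit, showed the largest difference, at 193, 129 and 127 CPM against 10095, 16251, 21698 and 12228 (log2 fold change -6.34 ± 0.59 SE). Those of 18S did not pass, at 6670.0, 3886 and 4027 against 21417, 3036, 4642 and 2917 CPM (adjusted p = 0.707). Repeats were 62 of 90 lower and 6 higher. MMERVK9E_I:ERV2, an endogenous retrovirus, was at 15.6, 19.8 and 13.8 CPM against 69.6, 143, 58.1 and 116 (log2 fold change -2.18 ± 0.46 SE). RLTR6_MM:ERV1, a long terminal repeat named after its values were seen, went the other way at 87.9, 78.2 and 76.9 against 7.85, 3.85, 3.96 and 6.08 CPM (log2 fold change 4.31 ± 0.41 SE), while the internal part of the same element, RLTR6I_MM:ERV1, was at 21.1, 16.5 and 17.4 against 72.3, 127, 85.1 and 154 CPM (log2 fold change -2.21 ± 0.43 SE). Box C/D small nucleolar RNAs, guides of rRNA methylation, had 13 of 49 tested rows lower and 7 higher, beside 32.8% and 42.4% over all rows. Without vesicle library 2 the lower count was 8, and without testicular sperm library 3 the higher count was 12. With the shared title ending only, 37 were lower. Snord104 was at 169, 66.0 and 85.5 CPM against 16.5, 18.5, 58.9 and 20.3, with vesicle library 1 far above the other vesicles (log2 fold change 2.18 ± 0.58 SE), and the call was lost with the shared title ending only (0.96, adjusted p = 0.428).

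Among mRNA fragments, those of distal epididymis genes were higher in the vesicles and those of germ cell genes were lower. These libraries hold RNA under 40 nt, so a gene row stands for fragments, and where in the gene they lie is not given. Among rows averaging at least 100 CPM in the vesicles the largest rise was of Crisp1, a secreted epididymal protein that coats sperm, at chromosome 17, 40293758 to 40319207 (GRCm38). It was at 277, 245 and 268 CPM there and at 1.65, 0.246, 0.185 and 0 in testicular sperm, where it had 8, 3, 3 and 0 reads (log2 fold change 9.82 ± 0.95 SE, adjusted p = 4.82e-06). Gpx3, a secreted glutathione peroxidase at chromosome 11, 54902854 to 54910387, was at 115, 119.6 and 104 CPM against 1.65, 0, 0.433 and 0.259 (log2 fold change 8.27 ± 0.85 SE). Of mRNAs of the distal epididymis, 11 of 12 tested of 22 listed were higher and 1 lower, and the list summed to 395 to 424 CPM in the vesicles and 2.33 to 27.7 in testicular sperm. Spink8, a protease inhibitor gene, was at 95.3, 100.3 and 94.3 CPM against 10.3, 0.409, 0.433 and 0.129 (log2 fold change 5.77 ± 1.12 SE), and Cd52, whose glycoprotein is passed from the duct to sperm, at 34.3, 31.2 and 28.1 against 1.03, 0, 0.124 and 0.0647 CPM (log2 fold change 7.63 ± 0.83 SE). The lower member was Spink2, an acrosin inhibitor that sperm also make, at 0.125, 0.279 and 0.312 CPM against 2.07, 1.06, 0.866 and 0.712 (named after its values were seen).

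Markers of the caput epithelium were mixed. Of 7 tested of 25 listed, 2 were higher and 1 lower, beside 42.4% and 32.8% over all rows. Leaving out testicular sperm library 1 left 3 higher and 0 lower. Without vesicle library 1 or 2, or testicular sperm library 2, 3 or 4, 1 was higher. Adam7, a protein transferred to sperm on vesicles, was at 40.6, 41.1 and 40.2 CPM in the vesicles and 48.9, 1.39, 1.11 and 0.324 in testicular sperm, with library 1 above all vesicle libraries (log2 fold change 2.22 ± 1.17 SE, adjusted p = 0.0998, and 5.70 with adjusted p = 7.93e-11 without library 1). Gpx5 was at 1.38, 2.35 and 6.86 CPM in the vesicles, and its log2 fold change was -2.17 ± 1.31 (SE) with library 1 and 1.24 without it. Clu, made by Sertoli cells and by epididymal epithelium, was also highest in library 1, at 24.1, 20.4 and 27.9 CPM against 37.4, 2.29, 2.04 and 0.906 (log2 fold change 1.74 ± 0.94 SE, and 4.05 with adjusted p = 1.27e-09 without library 1). Ces5a, a secreted carboxylesterase, was at 18.5, 18.9 and 17.99 CPM against 1.86, 0, 0.495 and 0 and rose with or without it (log2 fold change 5.75 ± 0.96 SE).

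Germ cell mRNAs were lower in the vesicles. Of spermatid mRNAs 12 of 16 tested of 37 listed were lower and 0 higher, summing to 19.5 to 28.5 CPM in the vesicles and 72.1 to 109 in testicular sperm. Smcp, a protein of the sperm mitochondrial sheath, was at 2.57, 3.86 and 2.18 CPM against 27.7, 20.8, 28.4 and 18.4 (log2 fold change -2.69 ± 0.46 SE), and Oaz3, the germ cell antizyme, at 0.375, 0.559 and 0.468 against 10.5, 8.52, 11.7 and 7.83 CPM (log2 fold change -3.99 ± 0.48 SE). Odf1 of the sperm tail was the most abundant in the vesicles, at 8.45, 13.5 and 11.4 CPM against 20.4, 18.4, 27.5 and 14.2, and did not pass (log2 fold change -0.51 ± 0.43 SE, adjusted p = 0.292). The 15 spermatocyte mRNAs summed to 1.25 to 1.66 CPM in the vesicles and 25.6 to 63.3 in testicular sperm. The 9 of them tested passed the filter on low counts through testicular sperm, which largely set their direction, so their count is not read as a result. Piwil2, a piRNA-binding protein, was at 0.125, 0.447 and 0.468 CPM against 14.9, 39.6, 25.2 and 36.0 (log2 fold change -5.97 ± 0.67 SE), and Tdrd1, its partner in the germ granules, at 0.0626, 0.0559 and 0 against 3.30, 8.43, 5.38 and 10.7 CPM (log2 fold change -6.91 ± 0.77 SE). Testis-specific histone Hist1h2ba was at 0, 0.112 and 0 CPM against 13.6, 21.7, 11.9 and 22.8 (log2 fold change -8.22 ± 0.82 SE). Histone mRNAs as a list had 9 of 11 tested of 63 listed lower and 1 higher. Without vesicle library 1, 2 and 3, 16, 14 and 14 were lower, in fits that tested 7387, 7291 and 7295 rows in all instead of 6572. The list summed to 9.83 to 10.3 CPM in the vesicles and 57.0 to 66.8 in testicular sperm, and 24 of its rows had no vesicle reads. Rows this scarce can pass the filter on low counts through testicular sperm alone, so these counts are descriptions. Of 16 Sertoli and Leydig mRNAs listed, 2 were tested, of which 1 was lower and 1 did not pass. Without testicular sperm library 1, 1 was higher and 1 lower. The list summed to 25.9, 21.2 and 29.1 CPM in the vesicles and 43.6, 5.81, 6.49 and 7.57 in testicular sperm, so it was not lower as a whole. Star of steroid synthesis was the lower member, at 0.188, 0.0559 and 0.156 CPM against 0.620, 3.11, 3.03 and 4.92 (log2 fold change -4.11 ± 0.70 SE). Without testicular sperm library 2, 3 or 4 Star did not pass the filter on low counts and was not tested.

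Most ribosomal protein mRNAs rose, with 77 of 83 tested higher and 1 lower, a median log2 fold change of 3.07. Rpl4 was at 81.6, 76.2 and 68.3 CPM in the vesicles and 14.9, 5.32, 4.08 and 4.85 in testicular sperm (log2 fold change 3.82 ± 0.48 SE), and Rpl41 at 66.1, 86.5 and 83.6 against 8.88, 2.62, 4.64 and 1.68 CPM (log2 fold change 4.57 ± 0.56 SE). The exception was Rps15, at 4.50, 5.64 and 4.99 CPM against 20.03, 37.6, 29.5 and 43.4, in which every vesicle library was below every sperm library (log2 fold change -2.33 ± 0.45 SE, adjusted p = 5.00e-04). The elongation factor Eef1a1 was higher at 92.6, 109 and 102 CPM against 29.7, 2.62, 3.40 and 1.88 (log2 fold change 3.95 ± 0.82 SE). mRNAs of vesicle proteins were all higher among the 9 tested of 11 listed, but scarce. They summed to 19.2 to 22.4 CPM in the vesicles and 3.22 to 10.5 in testicular sperm. Among the clear differences Anxa2, an annexin of membranes, led at 4.19, 4.69 and 5.56 against 1.03, 0.246, 0.124 and 0.194 CPM (log2 fold change 4.36 ± 0.54 SE). The call of Pdcd6ip, another member, was lost with library totals as scaling (adjusted p = 0.156) and with DESeq2 (its adjusted p = 0.0552). It was also lost without any of the vesicle libraries or testicular sperm library 2, 3 or 4 (adjusted p = 0.0552 to 0.127). Collagen Col1a2 was at 35.1, 50.5 and 42.5 CPM against 3.72, 0.491, 1.11 and 0.194 (log2 fold change 5.53 ± 0.76 SE). Of blood and immune mRNAs 4 of 8 tested were higher and 4 lower, beside 42.4% and 32.8% over all rows. Without testicular sperm library 1, or without vesicle library 1 or 2, 1 was lower, and 2 were without vesicle library 3. The higher members, named after their values were seen, were Cd74, Lyz2, Lyz1 and Csf1r of macrophages and antigen-presenting cells, with Cd74 at 5.26, 7.49 and 7.12 CPM against 0.620, 0.0819, 0.0618 and 0.194.

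**Figure D5:**
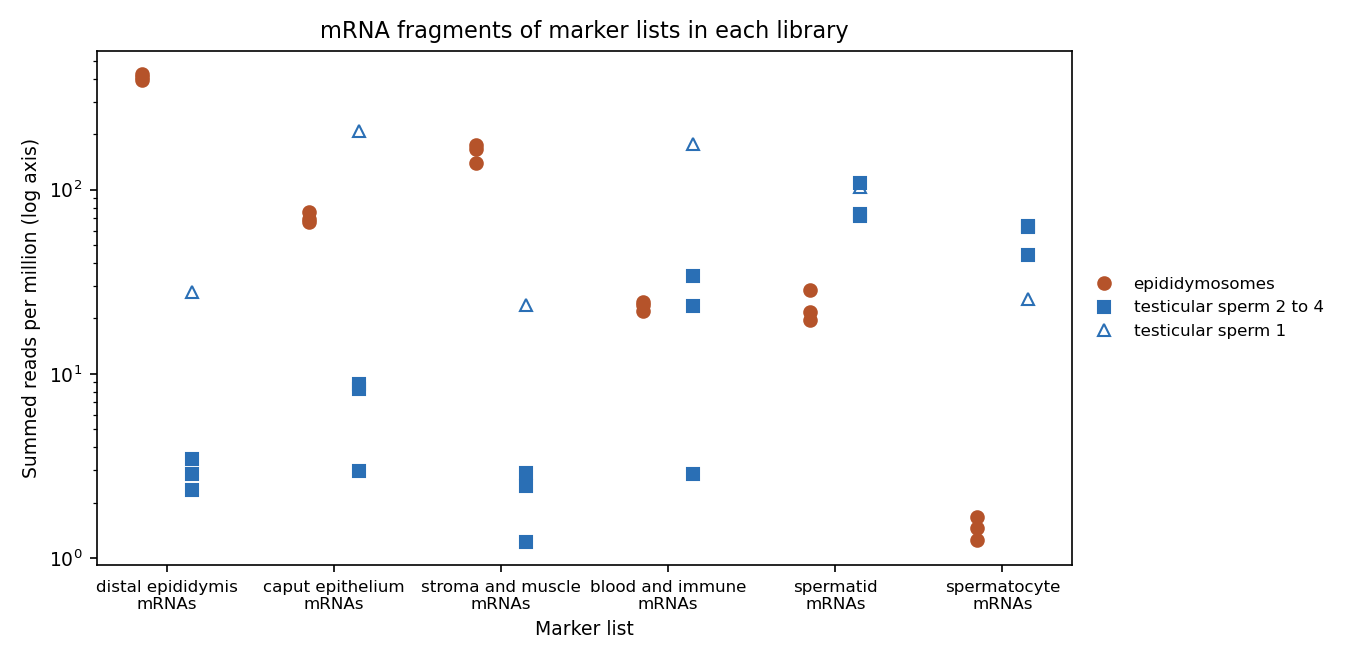
Summed CPM (y axis, log scale) of the listed mRNAs for 6 marker lists (x axis), with circles for the 3 epididymosome libraries, an open triangle for testicular sperm library 1 and squares for the other 3. Distal epididymis mRNAs summed to 395 to 424 in the vesicles, and library 1 lies above the other sperm libraries for the epididymal, stromal and blood lists.

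Cauda sperm, the sperm of the same end of the duct, were in the same table as 7 libraries and are given as levels with no test. Most of their titles carry an age in weeks, and the ages differ. None of their titles has the ending of the vesicle titles. Gly-GCC fragments were at 195787 to 321925, median 261501 CPM in cauda sperm, and those of Glu-CTC at 88785 to 226335, median 196195, both far above testicular sperm. Val-CAC was at 159905 to 297864, median 221817 CPM, above the vesicles in every library. The leading vesicle microRNAs had lower CPM there, where all microRNAs together made up 0.501 to 2.56% of reads. As a share of microRNA reads, the Hox cluster microRNAs were at 6.88 to 38.1% in cauda sperm, beside a mean of 33.6% in the vesicles. By the same measure the mir-200 family was at 0.966 to 2.89%, beside 9.78%, and the muscle list at 1.51 to 5.91%, beside 19.8%. Mir143 was at 96.3 to 723, median 206 CPM in cauda sperm, Mir141 at 26.4 to 284, median 59.6 and Mir10b at 344 to 5179.8, median 1576. Mir34c was at 317 to 835, median 557 CPM, and the red cell microRNA Mir451a was at 0.856 to 4.38, median 1.20. Crisp1 fragments were at 27.8 to 426, median 57.9 CPM in cauda sperm, a range that holds the vesicle values. The piRNA locus 9-qC-31469.1 was at 465 to 1317, median 834 CPM, between the vesicles and testicular sperm.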

How the data were processed

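Small RNA under 40 nt was measured in 3 cauda epididymosome and 4 testicular sperm libraries. The deposited values were unscaled expected counts per row, whole numbers in the rRNA, tRNA, microRNA, piRNA and repeat classes and not whole in many gene rows. Reads were mapped to mm10, per the submitters' processing notes. The sources used here name no aligner or counter for this table. Values were rounded to whole counts. Reads of 28S, 18S and 5.8S are also in the 45S row, so these 3 rows were left out of totals and scaling. Copies of tRNA were summed per isoacceptor, and 27 gene rows with names turned into dates, at most 0.0043% of a library, were dropped. Totals were 4842247 to 19234548 reads, which limits precision most in testicular sperm library 1.

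Rows were tested with edgeR 4.0.16 (R 4.3.3, limma 3.58.1): its filter on low counts, TMM scaling, robust quasi-likelihood F test and Benjamini-Hochberg adjustment. SE was |log2 fold change| divided by the square root of F. The test was run on simulated data first. Shares were compared by exact permutation of libraries. DESeq2 1.42.0, other scalings and filters, and left-out libraries were the alternatives. Python 3.11.15, numpy 2.4.6, pandas 2.3.3 and matplotlib 3.10.9 were used. Named were the 12 largest rises and 12 largest falls averaging at least 100 CPM in the higher group, at most 4 per RNA class, the 5 most abundant microRNAs and tRNAs of each group, and the 3 most abundant members of each of 37 lists, of which some are left out of the text. Members, lists and rule were chosen with earlier results of these data known.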

Additional observations from a re-analysis of the deposited data

Results flagged for a closer look

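In 23 of 134 values tested over the 4 testicular sperm libraries, 1 library lay so far from the other 3 that its gap to the nearest, divided by the range of the group, passed the 95% critical value of Dixon's test. Chance alone gives about 1 in 20. The value was the highest of the group, and in testicular sperm library 1, for all but Snord104. For fragments of epididymal mRNAs the ratio was Adam7 0.978, Gpx5 0.979, Spink8 0.970, Crisp1 0.851, Cd52 0.880 and Clu 0.962. For mRNAs and long RNAs of stroma, blood and other cells it was Col1a1 0.985, Dcn 0.983, Hba-a2 0.847, Anxa2 0.866, Malat1 0.878, Eef1a1 0.945 and Rpl4 0.885. For microRNAs it was Mir205 0.931, Mir200a 0.839, Mir429 0.835, Mir10a 0.837, Mir27a 0.949 and Mir23b 0.856, and for tRNAs Thr-AGT 0.856 and His-GTG 0.841. For Mir6236, counted as a gene row, it was 0.990, with 644, 8.43, 8.97 and 2.59 CPM in sperm libraries 1 to 4 and 0.313, 0.559 and 0.208 in the vesicles. For Snord104 it was 0.910, and the library that stood apart was testicular sperm library 3, at 58.9 CPM.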

How the results depend on the processing

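No paired analysis was possible because the testicular sperm titles carry no replicate number that the vesicle titles share. Of 15 alternatives, those that moved a count of calls by over 1.5 times were no filter on low rows, with 4457 RNAs higher and 3421 lower, a spread shared over the maturation table, with 3318 lower, microRNA rows scaled among themselves, with 125 microRNAs lower, and the shared title ending only, with 139 microRNAs lower. The main fit tested 6572 rows, against 19458 with no filter and 12189 with the shared spread. In both of these alternatives the calls given were a smaller share of the rows tested than in the main fit. What moved the microRNA counts was not tested. Leaving out 1 library at a time gave 2540 to 2947 RNAs higher and 1747 to 2242 lower, and 162 to 194 microRNAs higher and 50 to 95 lower. DESeq2 gave 3824 higher and 2649 lower of 13879 with an adjusted p. As a share of the library without rRNA, differences of 68.6 points for tRNA, -71.7 for piRNA, -0.0666 for repeats and -0.546 for gene rows each had an exact permutation p of 0.0286, adjusted 0.0357. With the shared title ending only, the gene share turned to 0.0231 points higher in the vesicles. Directions of RNAs that had not passed turned for Mirlet7f-2 (-0.039) and Mir30e (-0.28) with microRNA rows scaled among themselves, and for Mir30e (-0.58) and Gpx5 (0.81) with the shared title ending only. When 1 library was left out, the log2 fold change ran from -0.63 to 0.13 for Mirlet7i, from -0.91 to 0.24 for Mir204 and from -2.996 to 1.24 for Gpx5, with each highest value without testicular sperm library 1. With 3 and 4 libraries, shares cannot reach 0.05 once a library is left out, and the SE of RNAs present in a few reads is wide.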

Other observations

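The other small non-coding RNAs were not uniform. Rpph1, the RNA of RNase P, was at 59.1, 47.3 and 44.97 CPM in the vesicles and 18.2, 6.63, 12.0 and 3.30 in testicular sperm (log2 fold change 2.71 ± 0.53 SE, adjusted p = 5.79e-04). Vaultrc5, a vault RNA, was at 54.9, 37.2 and 33.6 CPM against 626, 21.7, 216 and 31.3, and Rmrp, the RNA of RNase MRP, at 36.5, 17.05 and 23.6 against 83.4, 40.1, 117 and 31.7 CPM, (adjusted p = 0.0655 and 0.0882). Both calls depended on the setting, as both passed as lower without testicular sperm library 2 (Vaultrc5 adjusted p = 0.0139, Rmrp 0.0473) or library 4 (0.0201 and 0.0236), and with library totals as scaling (0.0433 and 0.0275). Among nuclear long RNAs, Malat1 was at 36.6, 37.9 and 36.0 CPM against 22.7, 2.13, 4.64 and 3.75 (log2 fold change 2.64 ± 0.65 SE, adjusted p = 0.00273), and Neat1 at 2.31, 3.19 and 3.85 against 4.13, 5.73, 4.88 and 5.44 (adjusted p = 0.441). Kcnq1ot1, an imprinted antisense RNA, was lower at 0.813, 1.40 and 1.04 CPM against 2.27, 2.46, 3.59 and 2.85 (adjusted p = 0.0333), a call lost without vesicle library 1, 2 or 3 (adjusted p = 0.180, 0.0679 and 0.145).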
